A study of Mus musculus with 28 samples.

Results

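The genes described here are 10 marker genes of the oligodendrocyte lineage, *Olig1*, *Olig2*, *Sox10*, *Pdgfra*, *Cspg4*, *Mbp*, *Mog*, *Mag*, *Mobp* and *Cnp*, of 55450 annotated mouse genes, 21951 of them protein-coding. They were chosen by name as genes of another lineage and read in histone modification profiles of sorted striatal neurons. Nuclei of adenosine A2a receptor (A2a) and dopamine D1 receptor (D1) medium spiny neurons were profiled by CUT&RUN (CnR), in which an antibody directs a nuclease to cut out the chromatin that carries a modification. The nuclei were captured on beads through a GFP-tagged SUN1 protein of the nuclear envelope. The mice carried the R26-CAG-LSL-Sun1-sfGFP allele together with A2a-cre or Drd1-cre, on a C57BL/6J background, and were adults of both sexes, about 8 weeks old. The Cre line decides which nuclei carry the tag, and each sample came from the bilateral striatum of a single mouse, so a list describes the nuclei that were captured. Of 28 samples, 8 enter the 4 lists used here, A2a and D1 with H3K4me3 (Abcam antibody) and A2a and D1 with H3K27me3 (Active Motif antibody), and each list pools 2 replicates. The lists therefore carry no spread between replicates, no difference between A2a and D1 was tested, and the intervals given cover counting error only.

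Oligodendrocytes wrap axons in myelin, and they arise from precursors that divide throughout the brain. The lineage is set by transcription factors such as OLIG2 and SOX10, its precursors are recognised by the growth factor receptor PDGFRA and the proteoglycan NG2, and mature cells make the structural proteins of myelin. H3K4me3 marks the start of active genes and of many CpG-rich promoters, whereas H3K27me3, laid down by Polycomb repressive complex 2, covers genes that are kept silent, often developmental regulators of other cell types, and a promoter that carries both marks is called bivalent.

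H3K4me3 peaks numbered 22551 (A2a) and 20080 (D1), with a median length of 1214 and 1170 bp, and H3K27me3 islands numbered 60191 (A2a) and 45760 (D1), with a median length of 3600 and 3000 bp. An island is a stretch of enriched windows, given with its read count. The A2a islands held 22091634 reads and the D1 islands 7878685, which is a mean of 73.4 and 42.8 reads per kb of island. Fold enrichments and reads are not normalized between A2a and D1, so each region was also given its percentile, which is the share of regions in its own list with an equal or lower strength (−log10 q for a peak, reads for an island). For the D1 H3K27me3 samples the source name reads A2a while the title and the cell type read D1, and they were taken as D1. At *Adora2a*, which encodes the A2a receptor, the promoter carried no island in the A2a list and 45.0 kb of island in the D1 list, and at *Drd1* an island of 16.8 kb in A2a stood against 1.8 kb in D1. Of 10 markers of neurons and striatal projection neurons, 8 carried a promoter H3K4me3 peak in each cell type. Among protein-coding genes 58.2% carried one in A2a and 55.8% in D1. *Rbfox3* and *Gad1* carried none at their annotated 5′ end.

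The promoter was taken as 2 kb upstream to 1 kb downstream of the annotated 5′ end (TSS), and any region that overlapped this window was assigned to the gene. In A2a, 6 of the 10 genes carried a promoter H3K4me3 peak (*Olig1*, *Olig2*, *Mbp*, *Mog*, *Mobp* and *Cnp*), beside 30.1% of all genes and 58.2% of protein-coding genes. In D1, 5 carried such a peak (*Olig1*, *Olig2*, *Mbp*, *Mag* and *Cnp*), beside 28.6% of all genes and 55.8% of protein-coding genes. With this window and TSS, the share of the 10 genes with a peak was therefore close to that of protein-coding genes. The promoter H3K27me3 calls fell on 6 genes in A2a and on 6 in D1, namely *Olig1*, *Olig2*, *Sox10*, *Pdgfra*, *Cspg4* and *Mobp* in both. Among all genes 19.3% had a promoter island in A2a and 13.1% in D1, and among protein-coding genes 21.6% and 15.3%. H3K27me3 thus covered the 3 transcription factors and both precursor surface proteins, and a single gene of the 5 that encode myelin proteins.

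The marks combined in different ways from gene to gene. Both marks stood at the promoters of *Olig1*, *Olig2* and *Mobp* in A2a, where 4.96% of all and 9.53% of protein-coding genes had both, and at those of *Olig1* and *Olig2* in D1, where 2.87% and 5.56% had both. Those of *Mbp* and *Cnp* carried H3K4me3 without H3K27me3 in both cell types, joined by *Mog* in A2a and *Mag* in D1 (background 25.2% of all and 48.7% of protein-coding genes in A2a, 25.7% and 50.2% in D1). The promoters of *Sox10*, *Pdgfra* and *Cspg4* carried H3K27me3 without H3K4me3 in both cell types, joined by *Mobp* in D1 (background 14.4% and 12.1% in A2a, 10.3% and 9.71% in D1). *Mag* in A2a and *Mog* in D1 carried neither mark, the state of 55.5% and 61.2% of all genes and of 29.7% and 34.5% of protein-coding genes. The maps of the 10 genes show these arrangements around each TSS.

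**Figure D1:**
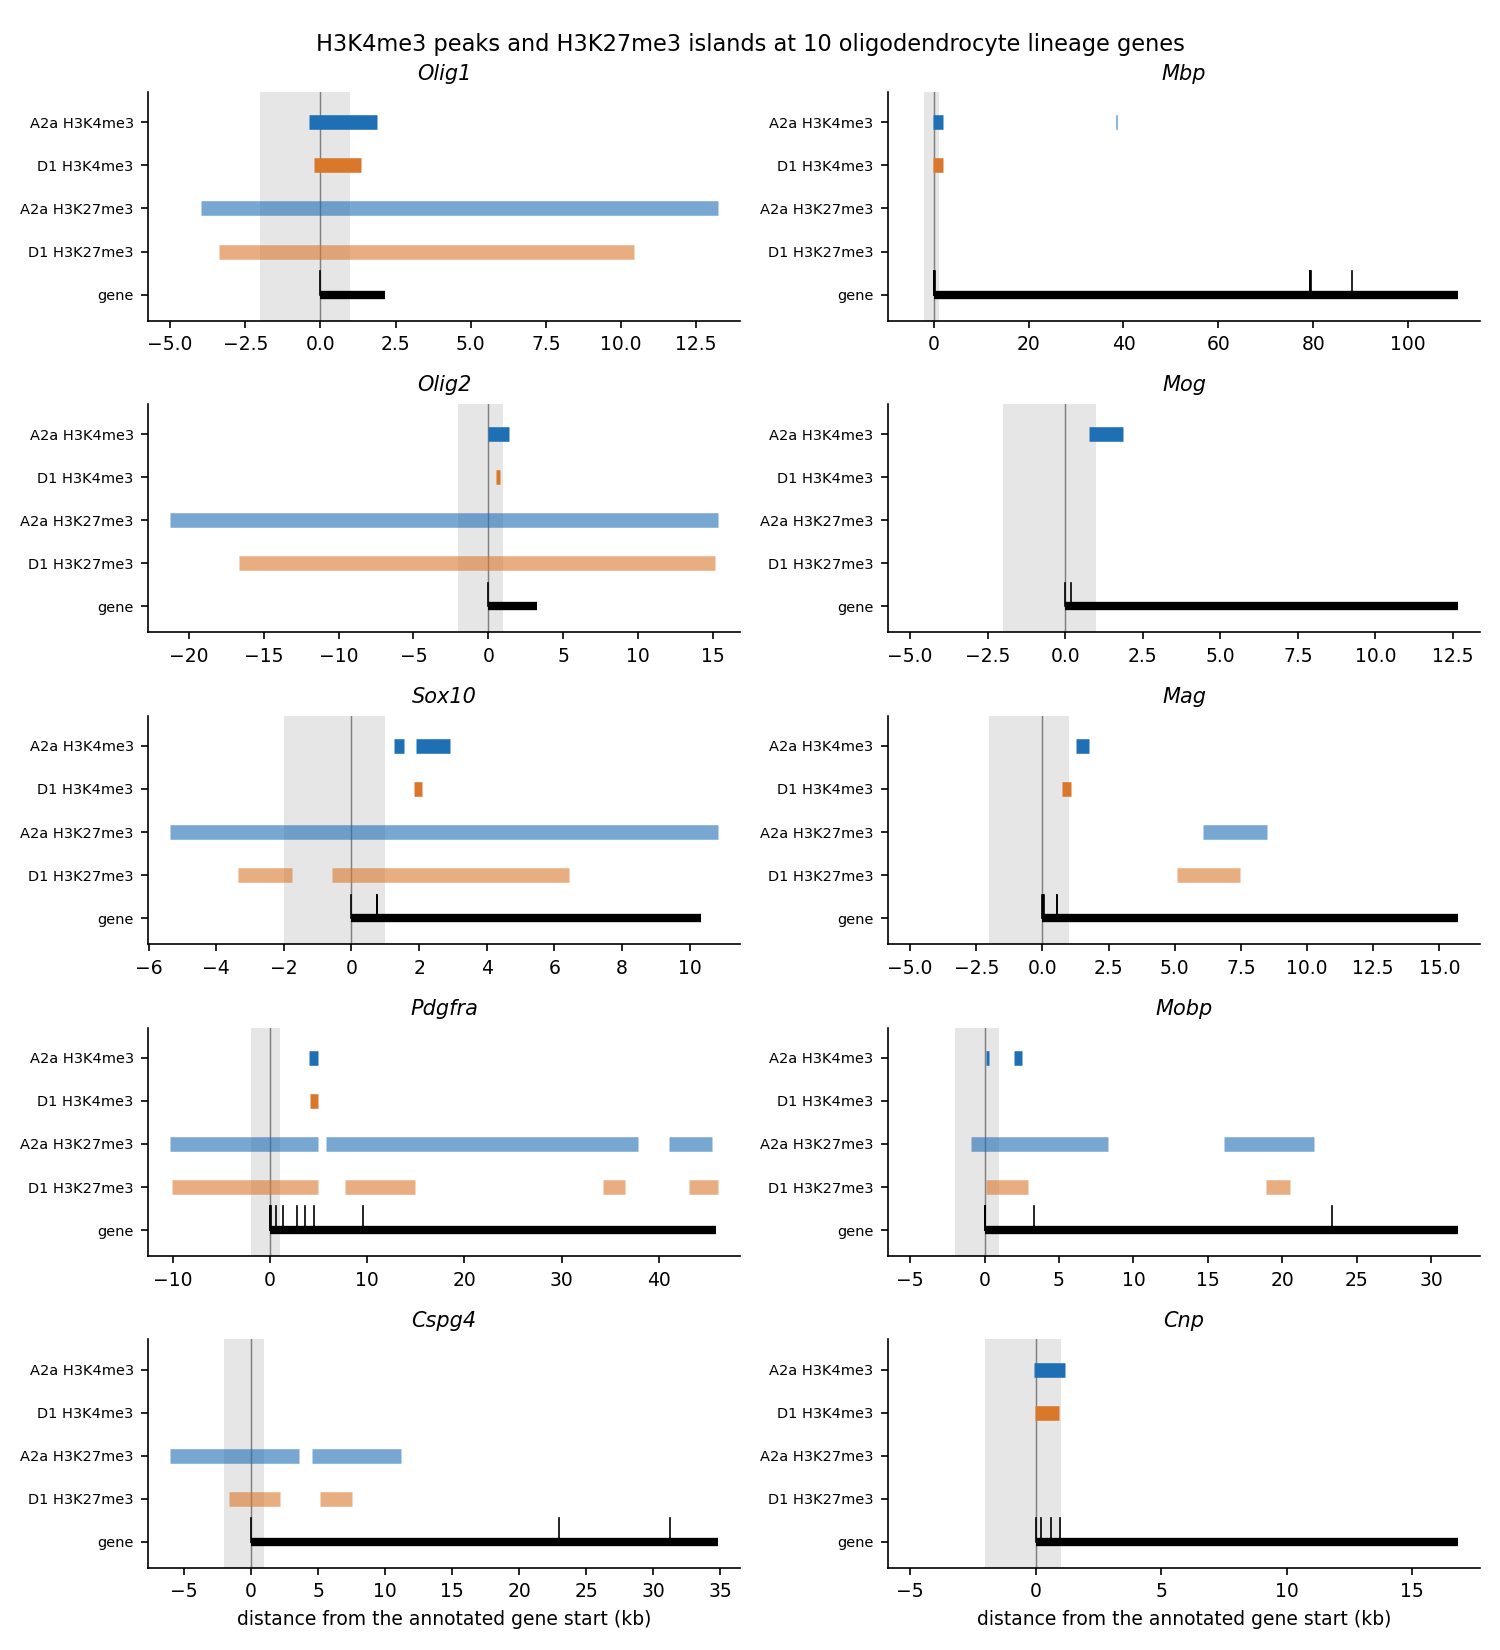
H3K4me3 peaks and H3K27me3 islands of the A2a (blue) and D1 (orange) lists at the 10 genes, drawn by distance in kb from the annotated gene start along the direction of transcription. The black bar is the gene, ticks are annotated transcript starts, and the grey band is the promoter window; the islands at *Olig1* and *Olig2* run past both ends of the gene, and *Mbp*, *Mog* and *Cnp* have none.

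The peaks at these genes were mostly among the weaker peaks of their list. Over the genes that had a promoter peak, the median percentile of the strongest peak was 34.9 in A2a and 37.2 in D1 for the 10 genes, and 70.3 and 69.5 for all genes. The promoter islands lay at the other end of their list, with a median percentile by reads of 97.4 in A2a and 93.8 in D1, against 77.9 and 77.6 for all genes with an island. The longest promoter island had a median length of 15.7 kb in A2a and 10.4 kb in D1 over these genes, against 5.6 and 4.4 kb over all genes with one. These medians describe the genes that carried a region and were not tested.

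**Figure D2:**
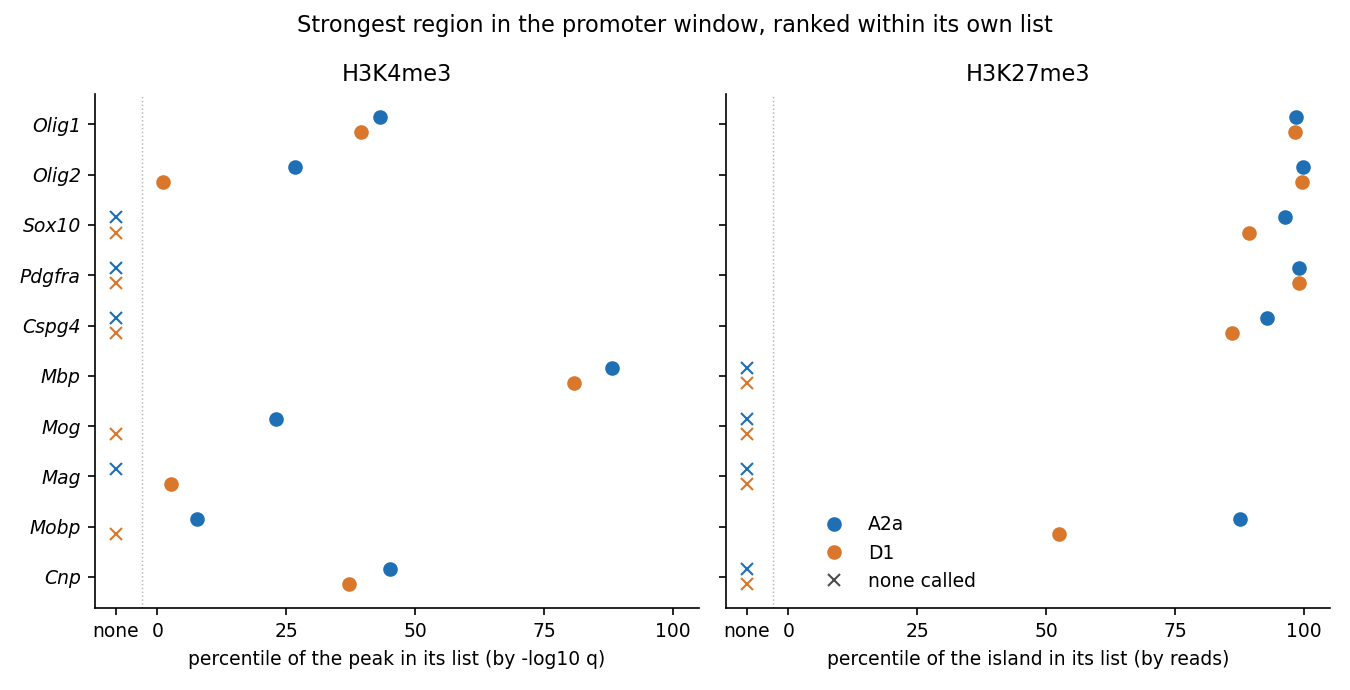
Percentile, within its own list, of the strongest H3K4me3 peak (left, by −log10 q) and H3K27me3 island (right, by reads) in the promoter window of each gene, in A2a (blue) and D1 (orange), with crosses where none was called. The *Mbp* peaks reach percentiles of 88.1 and 80.7 while the other peaks stay at or below 45.0, and the islands at *Olig1*, *Olig2* and *Pdgfra* lie above 98 in both lists.

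Promoter sequences show how far the genes differ in CpG content, a feature that H3K4me3 is known to follow. RefSeq entries for the promoter of 7 of the 10 genes were matched by symbol (*Olig2*, *Pdgfra*, *Cspg4*, *Mog*, *Mag*, *Mobp* and *Cnp*), among 32851 promoters in the table. The bases upstream of both the RefSeq and the GENCODE start are shown 5′ to 3′ on the strand of the gene (GRCm38.p6) for a gene with both marks in both cell types (*Olig2*, chr16:91225300-91225456, plus strand), a gene with H3K27me3 alone (*Cspg4*, chr9:56864854-56865032, plus strand), a gene with H3K4me3 alone (*Cnp*, chr11:100574689-100574903, plus strand) and a gene with a peak in A2a and no island (*Mog*, chr17:37023399-37023648, minus strand). Capitals mark each CG.
Olig2: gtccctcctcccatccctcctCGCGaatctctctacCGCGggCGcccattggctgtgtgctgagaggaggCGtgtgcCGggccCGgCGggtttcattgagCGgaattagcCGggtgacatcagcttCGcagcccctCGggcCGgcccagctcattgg
Cspg4: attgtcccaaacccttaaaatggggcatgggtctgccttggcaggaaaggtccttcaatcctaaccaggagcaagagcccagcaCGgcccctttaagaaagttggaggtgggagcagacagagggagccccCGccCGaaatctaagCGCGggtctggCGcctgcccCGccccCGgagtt
Cnp: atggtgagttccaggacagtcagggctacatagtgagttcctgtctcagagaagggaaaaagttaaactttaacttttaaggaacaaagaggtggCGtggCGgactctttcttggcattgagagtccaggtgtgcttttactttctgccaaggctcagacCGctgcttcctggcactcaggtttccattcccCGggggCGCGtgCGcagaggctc
Mog: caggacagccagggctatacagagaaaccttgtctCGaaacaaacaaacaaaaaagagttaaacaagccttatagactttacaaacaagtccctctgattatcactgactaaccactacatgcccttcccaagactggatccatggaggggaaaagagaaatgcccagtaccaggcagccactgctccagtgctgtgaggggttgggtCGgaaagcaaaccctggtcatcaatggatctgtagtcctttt
The 157 bases of *Olig2* hold 14 CG, the 179 of *Cspg4* 8, the 215 of *Cnp* 7 and the 250 of *Mog* 2. Over the full 250 bases before the RefSeq start, *Olig2* holds 22 CG, a count reached by 14.8% of the promoters in the table, *Cnp* 13 (31.5%), *Cspg4* 12 (33.5%) and *Mog* 2 (81.2%), and the median of the table is 6. CG runs through the *Olig2* sequence, gathers toward the start in *Cnp* and *Cspg4*, and is nearly absent from *Mog*.

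CpG content within 500 bp of the TSS could be read for all 10 genes. The observed over expected CpG ratio was 0.820 at *Olig1* and 0.756 at *Olig2*, 0.599 at *Mbp* and 0.590 at *Cnp*, and these 4 genes, all with a promoter H3K4me3 peak in both cell types, lay above the median of protein-coding genes (0.552). It was 0.398 at *Pdgfra*, 0.365 at *Cspg4*, 0.320 at *Mobp*, 0.166 at *Sox10*, 0.162 at *Mag* and 0.147 at *Mog*. These 6 genes lay below that median, and no peak at them was called in the promoter window in both cell types. Over protein-coding genes the median ratio in A2a was 0.746 with H3K4me3 alone, 0.660 with both marks, 0.283 with H3K27me3 alone and 0.169 with neither. *Olig1* and *Olig2* thus exceeded the median of genes with both marks, and *Mog* in A2a and *Mag* in D1 carried a peak at a ratio near the median of genes with neither mark.

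**Figure D3:**
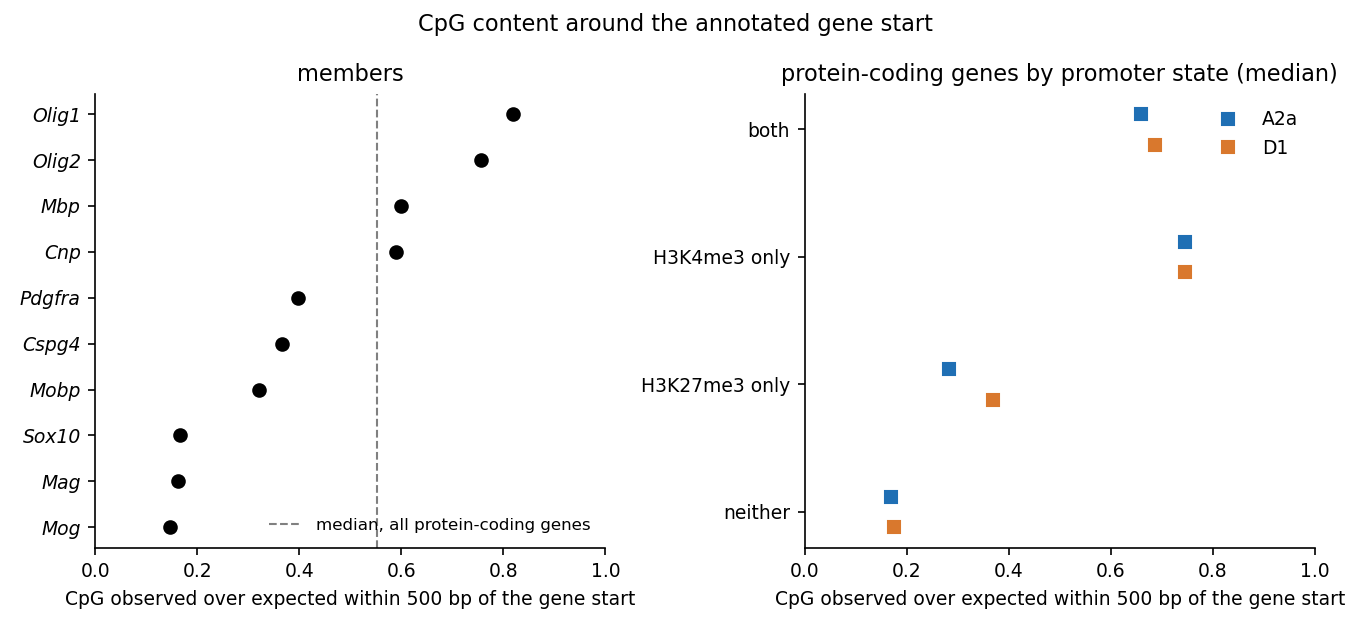
Observed over expected CpG ratio within 500 bp of the annotated start of each gene (left, black points, with the median of protein-coding genes dashed) and its median over protein-coding genes by promoter state (right, A2a blue, D1 orange). *Olig1*, *Olig2*, *Mbp* and *Cnp* lie to the right of the dashed line at 0.552 and the other 6 genes to its left.

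*Olig2* and *Olig1* encode basic helix-loop-helix transcription factors and are neighbours on chromosome 16 (*Olig2*, ENSMUSG00000039830.9, chr16:91225457-91228677; *Olig1*, ENSMUSG00000046160.6, chr16:91269772-91271933, both on the plus strand), with 44.3 kb between their starts. At *Olig2*, whose protein specifies oligodendrocyte precursors, the promoter island was 36.6 kb long in A2a with 5957 reads (95% interval 5807 to 6110) and 31.8 kb in D1 with 2648 reads (2548 to 2751). Both islands stood at a percentile of 99.7. At *Olig1*, whose protein acts in the maturation of oligodendrocytes, the island was 17.2 kb long in A2a with 2056 reads (1968 to 2147; percentile 98.4) and 13.8 kb in D1 with 862 reads (805 to 922; percentile 98.2). Each gene lay wholly inside its island in both lists. The islands of *Olig1* and *Olig2* did not merge, since 25 kb in A2a and 25.8 kb in D1 separated them, a stretch that held 2 smaller islands in A2a and 3 in D1.

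Within these islands the *Olig1* peak ran from −0.377 to 1.88 kb of the TSS in A2a (fold enrichment 6.13, −log10 q 39.4, percentile 43.1) and from −0.219 to 1.35 kb in D1 (fold 6.51, −log10 q 27.6, percentile 39.4). The *Olig2* peak covered 1401 bp in A2a (fold 3.95, −log10 q 14.7, percentile 26.7) and 288 bp in D1 (fold 2.76, −log10 q 3.11, percentile 1.13). All 4 peaks lay entirely under an island, so the marks covered the same bases. In pooled nuclei, both marks in each nucleus and each mark in a different set of nuclei cannot be told apart, here and wherever both were called. The D1 peak at *Olig2* did not reach the TSS, beginning 0.502 kb downstream of it, and was among the weakest of the D1 list, so the call of both marks there rests on a peak close to the threshold of the caller.

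*Sox10* (ENSMUSG00000033006.10, chr15:79154908-79165240, minus strand) encodes an HMG-box transcription factor that drives myelin genes and stays on throughout the lineage. Its promoter carried no H3K4me3 peak in either list. The A2a island was 16.2 kb long with 1256 reads (1187 to 1327; percentile 96.4) and covered the whole gene. In D1 the window touched 2 islands, of 7.0 kb with 280 reads (248 to 315; percentile 89.3) and of 1.6 kb with 57 reads (43.2 to 73.9; percentile 6.04), and from 2 kb upstream of the TSS to the 3′ end 58.7% was covered. Small H3K4me3 peaks stood just past the window, from 1.26 to 1.57 kb (−log10 q 5.74) and from 1.91 to 2.92 kb in A2a (fold 3.57, −log10 q 7.09, percentile 10.3) and from 1.84 to 2.07 kb in D1 (fold 3.38, −log10 q 4.0, percentile 2.91). These peaks lay within the islands, downstream of the second group of annotated transcript starts at 0.750 to 0.766 kb. The state of *Sox10* therefore turned on where the start is placed, since with the start of any annotated transcript its A2a promoter had both marks.

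*Pdgfra* (ENSMUSG00000029231.15, chr5:75152292-75198215, plus strand) encodes the receptor for platelet-derived growth factor A that precursors need to divide. Its promoter island was 15.2 kb long in A2a with 2936 reads (2831 to 3044) and 15 kb in D1 with 1390 reads (1318 to 1465), at a percentile of 99.1 in both lists. The D1 island lay within the A2a island and covered 98.7% of it, the closest match of the 6 genes. Downstream the lists differed in cover. The A2a islands there were 32.2 kb (2682 reads) and 4.4 kb (379 reads) long. Those of D1 were 7.2 kb (295 reads), 2.2 kb (97 reads) and 3.0 kb (115 reads) long. From 2 kb upstream to the 3′ end, 90.8% was covered in A2a and 39.9% in D1. The A2a list as a whole also covered more, 301 Mb against 184 Mb in D1. Whether the difference at *Pdgfra* goes beyond that was not tested.

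No H3K4me3 peak reached the *Pdgfra* promoter window, but a peak stood inside the gene from 4.01 to 4.91 kb in A2a (fold 7.55, −log10 q 34.5, percentile 41.1) and from 4.07 to 4.91 kb in D1 (fold 6.77, −log10 q 20.9, percentile 34.7). It spanned the annotated start of the coding transcript Pdgfra-209 at 4.54 kb and ended where the promoter island ended, at 4.91 kb in both lists. Almost all of the A2a peak (99.6%) and all of the D1 peak lay under the island. With the start of any annotated transcript, *Pdgfra* had both marks in both cell types.

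*Cspg4* (ENSMUSG00000032911.6, chr9:56865033-56899870, plus strand) encodes the NG2 proteoglycan of precursors, which pericytes also carry. It had no H3K4me3 peak in the promoter or the gene body of either list, and the nearest peak was 61.1 kb from the window in A2a and 61.6 kb in D1. The promoter island was 9.6 kb long in A2a with 818 reads (763 to 876; percentile 92.8) and 3.8 kb in D1 with 237 reads (208 to 269; percentile 86.0). A second island inside the gene had 343 reads over 6.6 kb in A2a and 67 reads over 2.4 kb in D1. The promoter island also overlapped the promoter window of *Odf3l1*, so it cannot be assigned to *Cspg4* alone, and none of the regions in the promoter windows of the other members was shared with another protein-coding gene. *Cspg4* was the only member with H3K27me3 and no H3K4me3 peak anywhere in the gene in both lists.

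*Mobp* (ENSMUSG00000032517.16, chr9:120149707-120181484, plus strand) encodes a small basic protein of compact myelin and was the myelin gene with promoter H3K27me3. Its island was 9.2 kb long in A2a with 572 reads (526 to 621; percentile 87.6) and 2.8 kb in D1 with 107 reads (87.7 to 129; percentile 52.5), and further islands inside the gene were 6.0 kb (379 reads) and 1.6 kb (72 reads). In A2a a peak of 249 bp stood in the promoter window (fold 3.65, −log10 q 5.86, percentile 7.71) and another of 544 bp from 1.95 to 2.49 kb (−log10 q 6.41), both under the island. In D1 no peak was called at the gene, and the nearest was 19.1 kb from the window. The bases before its start are shown (chr9:120149492-120149706, plus strand, RefSeq, GRCm38.p6) because they repeat a short word, with CTTTGT in capitals.
Mobp: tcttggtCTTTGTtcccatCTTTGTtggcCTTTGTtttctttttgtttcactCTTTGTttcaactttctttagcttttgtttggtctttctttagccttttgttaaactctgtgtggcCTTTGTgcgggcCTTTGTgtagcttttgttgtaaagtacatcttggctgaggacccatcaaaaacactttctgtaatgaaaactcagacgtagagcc
CTTTGT, or ACAAAG on the other strand, is a core that SOX-family factors such as SOX10 recognise, and it was chosen for display after the sequence had been seen. The copies do not overlap, and *Mobp* holds 6 of them in the 250 bases before the RefSeq start, where 16.5% of the 32851 promoters hold at least 1 and no other promoter of the table holds as many. Over the same 250 bases *Mag* and *Cnp* each hold 1 and *Olig2*, *Pdgfra*, *Cspg4* and *Mog* hold 0. The match describes letters only, and the lists hold no measurement of SOX10 binding.

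The islands of the 6 genes were compared by their reads per kb, a density that still depends on where each island was taken to end. In A2a the order was *Pdgfra* (193), *Olig2* (163), *Olig1* (120), *Cspg4* (85.2), *Sox10* (77.5) and *Mobp* (62.2), and the intervals of *Cspg4* (79.5 to 91.3) and *Sox10* (73.3 to 81.9) overlapped. In D1 it was *Pdgfra* (92.7), *Olig2* (83.3), *Olig1* (62.5), *Cspg4* (62.4), *Sox10* (39.2) and *Mobp* (38.2). There the intervals of *Olig1* (58.4 to 66.8) and *Cspg4* (54.7 to 70.8) overlapped, as did those of *Sox10* (35.1 to 43.6) and *Mobp* (31.3 to 46.2). *Pdgfra*, *Olig2*, *Olig1* and *Cspg4* exceeded the list mean in both cell types (2.63, 2.22, 1.63 and 1.16 times in A2a and 2.17, 1.95, 1.46 and 1.46 times in D1), *Sox10* lay near it (1.06 and 0.916 times) and *Mobp* below it in both (0.847 and 0.893 times).

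Each D1 promoter island at these genes lay wholly within the A2a islands. The same share over all genes was not computed, so this nesting is not read as particular to these genes. The D1 islands covered 98.7% of the A2a length at *Pdgfra*, 86.9% at *Olig2* and 80.2% at *Olig1*. They covered 53.1% at *Sox10*, 39.6% at *Cspg4* and 30.4% at *Mobp*. The 3 islands with the most reads per kb in A2a thus kept 80.2% or more of their length in D1 and the other 3 kept less. In D1 the reads per kb of *Olig1* and *Cspg4* (62.5 and 62.4) had overlapping intervals, so their order there is not settled. The median A2a over D1 ratio of length was 1.57 for the 6 genes and 1.41 for the 6448 genes with a promoter island in both lists, and that of reads per kb was 1.93 and 1.87. The list means themselves differed by 1.72 times. Gene by gene the ratio of reads per kb ran from 1.37 at *Cspg4* to 2.08 at *Pdgfra*. The islands were called separately in each list and, *Pdgfra* apart, differ in extent (9.6 against 3.8 kb at *Cspg4*), so these ratios also move with where an island ends and are given as descriptions. Depth is not known from the lists, and a lower mark in D1 and a shallower D1 library cannot be told apart.

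**Figure D4:**
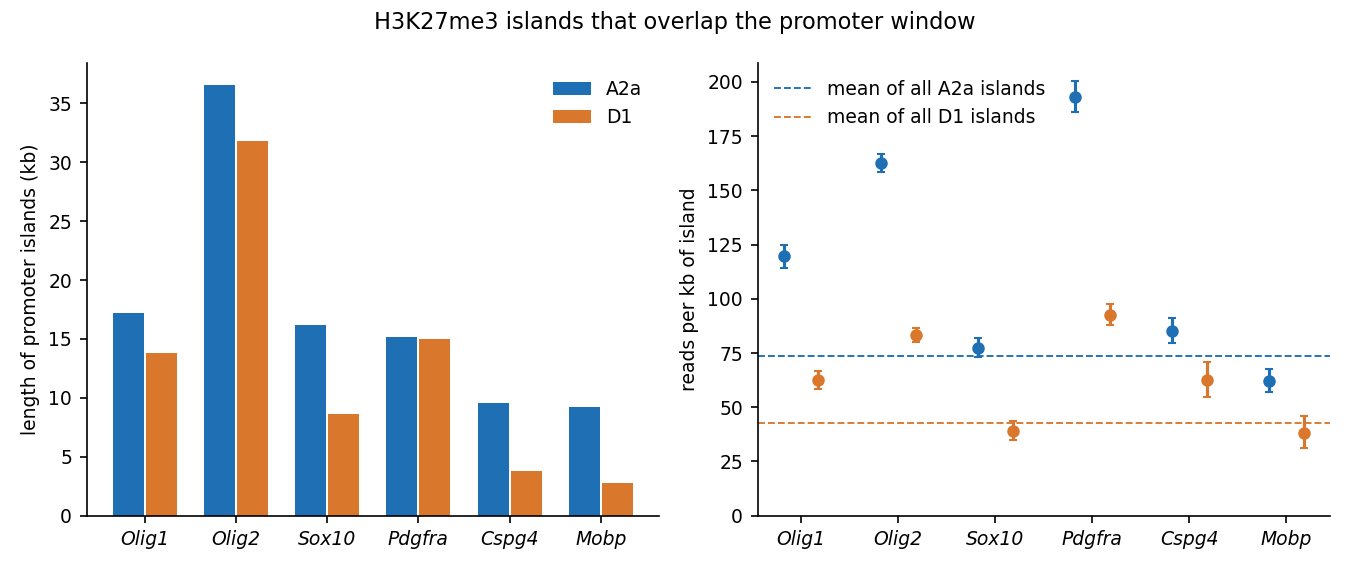
Length in kb (left, bars from 0) and reads per kb (right, points with 95% Poisson intervals) of the H3K27me3 islands over the promoter window of the 6 genes that have them, in A2a (blue) and D1 (orange), with the mean of each list dashed. *Pdgfra* and *Olig2* stand highest in both lists, at 193 and 163 reads per kb in A2a and 92.7 and 83.3 in D1, and *Mobp* lies below the dashed line of its list.

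*Mbp* (ENSMUSG00000041607.17, chromosome 18, plus strand) encodes myelin basic protein, which holds the cytoplasmic faces of the myelin membrane together, and its upstream start also gives the golli transcripts, which neurons and immune cells can make. Its 16 annotated transcripts fall into an upstream group of 4 within 0.224 kb of the gene start, a downstream group of 11 that begin between 79.3 and 79.4 kb, and a transcript that begins at 88.1 kb. The peak at the upstream start was 1961 bp long in A2a (fold 7.21, −log10 q 171, percentile 88.1) and 1959 bp in D1 (fold 6.82, −log10 q 104, percentile 80.7), and it began 90 bp before the TSS in both lists. At the downstream group, from which the classic myelin protein is made, no peak and no island fell in the window of either list, and the nearest peak was 38.7 kb away in A2a and 65.4 kb in D1. A peak of 254 bp at 38.4 to 38.7 kb was called in A2a alone (−log10 q 3.74, percentile 1.88). No island was called anywhere in *Mbp*, and the nearest lay 45.9 kb (A2a) and 47.5 kb (D1) from the upstream window. The strong H3K4me3 of *Mbp* in these lists thus stood at its upstream start, and *Mbp* was the only member whose promoter peak exceeded the median percentile of all genes with a promoter peak.

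*Cnp* (ENSMUSG00000006782.16, chr11:100574904-100591729, plus strand) encodes the enzyme CNPase of non-compact myelin. Its peak covered the TSS, with 1218 bp in A2a (fold 4.96, −log10 q 44.6, percentile 45.0) and 965 bp in D1 (fold 4.63, −log10 q 24.2, percentile 37.2). No island was called in the gene, and the nearest was 57.9 kb from the window in A2a and 73.7 kb in D1. *Cnp* and *Mbp* were the members with H3K4me3 at the TSS in both cell types and no H3K27me3 across the gene.

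*Mog* (ENSMUSG00000076439.12, chr17:37010743-37023398, minus strand) encodes a glycoprotein of the outer myelin surface, and *Mag* (ENSMUSG00000036634.15, chr7:30899176-30914873, minus strand) an adhesion protein that faces the axon. At *Mog* the A2a list held a peak from 0.759 to 1.85 kb (fold 4.24, −log10 q 12.3, percentile 23.0), of which 242 bp reached into the promoter window, and the D1 list held none, its nearest peak being 3.06 kb from the window. At *Mag* the D1 list held a peak from 0.757 to 1.07 kb (fold 3.32, −log10 q 3.87, percentile 2.75), of which 244 bp lay in the window. The A2a peak at *Mag* ran from 1.28 to 1.78 kb (fold 3.75, −log10 q 7.88, percentile 14) and missed the window by 0.278 kb, so the D1 call and the missing A2a call turned on the edge of the window. With the downstream edge at 2 kb the A2a peak counted too. None of these peaks reached the TSS. No island was called at *Mog*, and at *Mag* an island of 2.4 kb lay inside the gene in each list, from 6.07 to 8.47 kb in A2a (214 reads) and from 5.07 to 7.47 kb in D1 (95 reads), with 1.4 kb shared.

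The promoter calls that differed between the cell types were all of H3K4me3 and rested on peaks at percentiles of 2.75 to 23.0. A promoter H3K4me3 peak was called in A2a and not in D1 at 2 of the 10 genes, *Mog* and *Mobp* (background 1.72% of all and 2.59% of protein-coding genes), and in D1 and not in A2a at 1, *Mag* (background 0.166% and 0.164%). No gene had a promoter island in 1 cell type alone, where 7.7% of all and 7.38% of protein-coding genes had it in A2a alone and 1.51% and 1% in D1 alone. Promoter peaks in A2a alone were also called at marker genes of microglia and astrocytes. The A2a list held more peaks (22551 against 20080 in D1), and with equal numbers of regions the A2a call at *Mobp* was lost. Of 10 microglia markers, 4 had a promoter peak in A2a alone, *P2ry12*, *Tmem119*, *Trem2* and *C1qb*, at percentiles from 0.90 to 23.1, and none had it in D1 alone. The microglia markers *Cx3cr1*, *Aif1* and *Csf1r* had none in either list. Of 10 astrocyte markers, 7 had a promoter peak in A2a (percentiles 8.06 to 56.1) and 6 in D1 (4.46 to 53.9). These counts stand beside 58.2% of protein-coding genes in A2a and 55.8% in D1. Of the 7, only *S100b* had the peak in A2a alone, and *Gfap*, *Aqp4* and *Aldh1l1* had none in either list. The part of nuclei of other cell types in the H3K4me3 calls at *Mog*, *Mag* and *Mobp* was not tested. The 10 genes of other organs had no promoter peak in either list.

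In the gene body, from 1 kb downstream of the TSS to the 3′ end, a peak overlapped 9 of the 10 genes in A2a (background 20.7% of all and 44.8% of protein-coding genes) and 5 in D1 (18.5% and 40.1%). Several of these are promoter peaks that run past 1 kb. Peaks wholly outside the promoter window were those named above at *Sox10*, *Pdgfra*, *Mag*, *Mobp* and *Mbp* in A2a and at *Sox10* and *Pdgfra* in D1. Gene body islands were called at 7 genes in each cell type (17.9% and 13.3% of all genes, 26.5% and 20.1% of protein-coding genes), namely the 6 with a promoter island and *Mag*.

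Beyond the 10 genes, 32 further genes of the lineage were read by the same rule. A promoter peak was called at 20 in A2a and 18 in D1, a share near that of protein-coding genes (58.2% and 55.8%). A promoter island was called at 19 and 15, beside 21.6% and 15.3% of protein-coding genes, and both marks at 14 and 11, beside 9.53% and 5.56%. The pattern of *Olig1* and *Olig2*, both marks in both cell types, was shared by 10 of the 32, beside 2.66% of all and 5.21% of protein-coding genes. These were the transcription factor genes *Nkx6-2*, *Zfp488* and *Zfp536*, the myelin membrane gene *Mal*, the lipid enzyme genes *Ugt8a* and *Fa2h*, the connexin gene *Gjc3*, the receptor genes *Gpr37* and *Lpar1*, and *Anln*, which encodes a cytoskeletal scaffold. Their peaks ranged widely, from *Nkx6-2* at −log10 q 8.08 (A2a) and 4.22 (D1) to *Gpr37* at 99.0 and 58.5. Their promoter islands ranged widely too. In A2a they ran from percentile 1.96 at *Gjc3* (1.0 kb) to 98.3 at *Mal*. In D1 they ran from 3.59 at *Fa2h* (1.2 kb) to 98.8 at *Zfp536*. The calls of both marks at *Gjc3* in both lists and at *Fa2h* in D1 thus rest on weak islands, unlike those at *Olig1* and *Olig2*. The A2a island at *Fa2h* was 4.8 kb long, at percentile 66.2.

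H3K4me3 alone in both cell types, the pattern of *Mbp* and *Cnp*, was found at *Sox8*, *Myrf*, *Sirt2* and *Tspan2*, among others. *Myrf*, the factor that switches on the myelin genes, had a weak peak (−log10 q 14.9 in A2a and 6.60 in D1), while *Sirt2*, a deacetylase gene, had −log10 q of 175 and 117. No region of either mark stood at the promoters of 6 genes, among them *Opalin*, which encodes a membrane protein of myelin. The pattern of *Sox10*, *Pdgfra* and *Cspg4* was shared by *Gpr17*, a receptor gene of committed precursors, with islands of 24.2 kb in A2a and 6.4 kb in D1. The longest promoter islands were at *Ptprz1* (30.4 kb), *Nkx2-2* (30.0 kb) and *Gpr17* in A2a and at *Nkx2-2* (29.4 kb), *Ugt8a* (16.0 kb) and *Zfp536* (15.8 kb) in D1, all shorter than that of *Olig2* in the same list.

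Calls that differed between the cell types among the 32 were H3K4me3 in A2a alone at *Nkx2-2*, *Cldn11* and *Trf* (2.59% of protein-coding genes), H3K4me3 in D1 alone at *Ermn* (0.164%), H3K27me3 in A2a alone at *Enpp6*, *Lhfpl3*, *Ptprz1*, *Hapln2* and *Klk6* (7.38%), and H3K27me3 in D1 alone at *Bcas1* (1%). The 3 A2a peaks had −log10 q of 9.04, 6.44 and 10.5 and the *Ermn* peak 5.09, so these too were weak peaks of their list. The *Ptprz1* island of 30.4 kb with 2081 reads in A2a had no counterpart in the D1 promoter. Promoter H3K27me3 at the other lists, of 10 genes each, was called at 7 astrocyte markers in A2a and 4 in D1. It was called at 6 and 3 microglia markers, at 3 and 1 neuronal markers and at 6 and 3 genes of other organs. The background was 21.6% of protein-coding genes in A2a and 15.3% in D1, and the neuronal counts lay near it. The bars of promoter states set these lists beside all protein-coding genes.

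**Figure D5:**
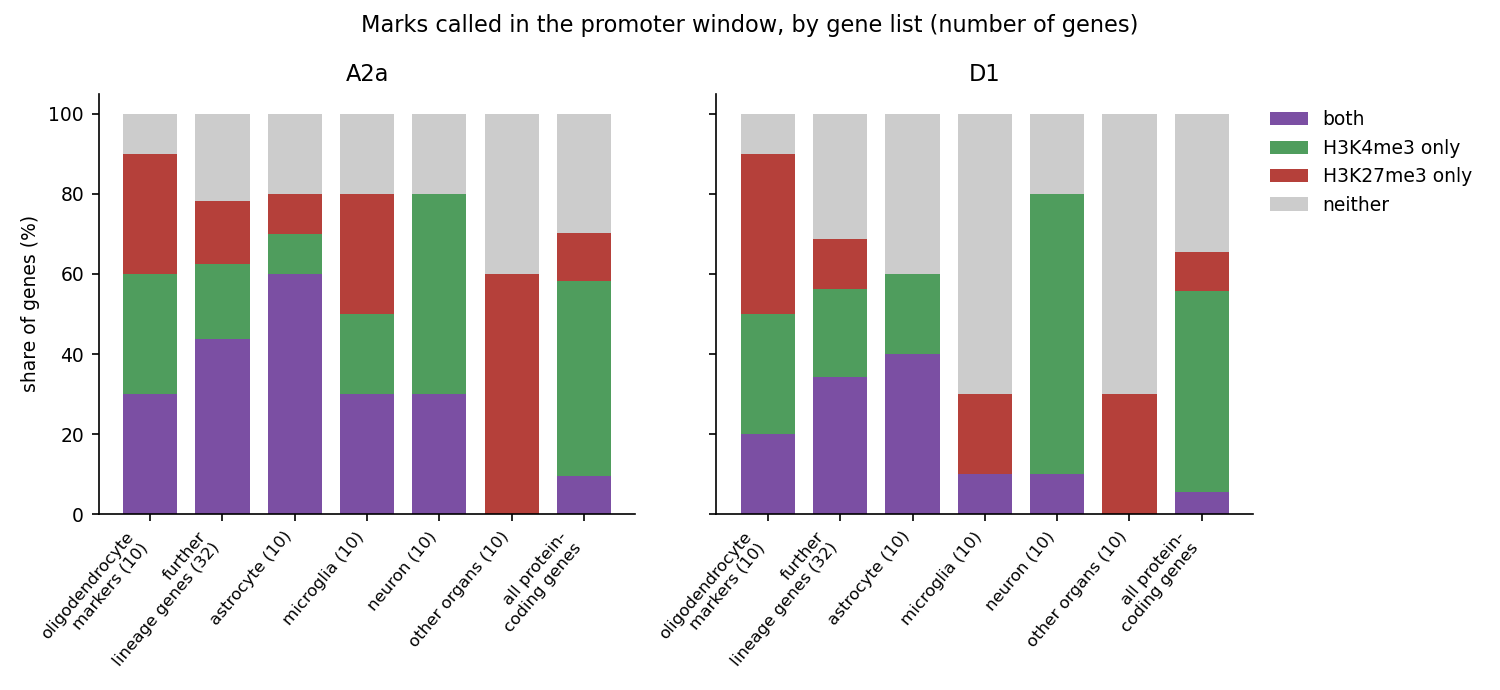
Share of genes in percent with both marks, H3K4me3 only, H3K27me3 only or neither mark in the promoter window, by gene list (number of genes in brackets) and for all protein-coding genes, in A2a (left) and D1 (right). The 10 oligodendrocyte markers split into 3, 3, 3 and 1 gene in A2a and 2, 3, 4 and 1 in D1, whereas the neuronal list holds no gene with H3K27me3 only.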

How the data were processed

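The 4 lists pool 8 of 28 samples, and the other 20 were not analysed here. Per the labels and methods, reads were mapped to mm10 (GRCm38) with Bowtie2 (version 2.1.0), kept at a mapping quality of at least 20, deduplicated and selected for inserts of 150 to 500 bp. The authors called H3K4me3 peaks with MACS2 (q-value below 0.01). Deposited peak columns give a fold enrichment (a ratio to local background), a −log10 q-value, a −log10 p-value, a score and a summit, of which the fold enrichment, −log10 q and summit were used. The authors called H3K27me3 islands with SICER (window 200 bp, gap 600 bp, false discovery rate 0.01) against a control that the sources used here do not name, and the deposited value is the read count of each island, not normalized. Whether replicates came from separate mice is unclear, since the labels do not say and the methods call them biological while the reporting summary calls them technical.

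Genes and transcripts were taken from GENCODE vM21, and coordinates count from 1. The promoter was 2 kb upstream to 1 kb downstream of the annotated 5′ end, with a minimum overlap of 1 bp. All 10 members are named, together with further lineage genes that share the pattern of *Olig1* and *Olig2*, differ between cell types or have the 3 longest islands, other-list genes that depart from their list, and genes that share a region with a member. Genes named outside this rule (*Sox8*, *Myrf*, *Sirt2*, *Tspan2*, *Opalin*) were chosen after their values were seen. Some genes of these lists are not reported here by name. The members and gene lists were chosen with earlier results of these data known. Intervals are exact Poisson intervals at the 95% level for reads. CpG ratios were read from the GRCm38 sequence. The depth of each library is unknown from the lists. Alternatives changed the window, the start, the overlap, the thresholds, the number of regions and the merging of islands. Scripts were tested on simulated data and run under Python 3.11.15 with scipy 1.17.1, numpy 2.4.6 and, for figures, matplotlib 3.10.9.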

Additional observations from a re-analysis of the deposited data

How the results depend on the processing

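The 12 counts and medians were recomputed under 7 alternative settings, giving 72 values, of which 64 stayed within 1.5 times (counts) or within the counting interval (medians). With peaks of at least −log10 q 5 and islands of at least 2000 bp, promoter H3K4me3 peaks in D1 fell to 3 genes (*Olig2* and *Mag* were lost), both marks in D1 to 1 gene and gene body peaks in D1 to 3. With the start of any annotated transcript, both marks in A2a rose to 5 genes (*Sox10* and *Pdgfra* gained) and gene body peaks in D1 fell to 3. That setting also raised promoter H3K4me3 peaks from 6 to 9 genes in A2a and from 5 to 6 in D1. A window from 5 kb upstream to 2 kb downstream raised them to 8 and 6. All of these count as within 1.5 times, and the shares over protein-coding genes were not recomputed for these settings. The median reads per kb of the promoter islands, 102 in A2a and 62.4 in D1, became 76.2 and 48.0 when islands within 5 kb were merged, and 56.2 in D1 with a window from 5 kb upstream to 2 kb downstream. Of the 40 promoter calls, that wider window added 3 (*Sox10* in both cell types and *Mag* in A2a), equal numbers of regions removed the A2a peak at *Mobp*, and a minimum overlap of 200 bp, the window from 1 kb upstream and the merging changed none. Which cause lies behind these changes beyond the construction of each setting was not tested. No paired analysis was possible because each list pools its 2 replicates, and for the same reason no replicate could be left out. An absent peak or island says that none passed the thresholds of the caller at an unknown depth.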

Other observations

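In the H3K4me3 lists the peaks nearest to *Mog* and *Mobp* in D1 lay outside these promoters, at 3.06 kb from the *Mog* window (fold 12, percentile 55.6) and at 19.1 kb from the *Mobp* window (fold 12.5, percentile 89.6). The nearest peaks to *Cspg4* were weaker, with a percentile of 28.9 in A2a and 13.8 in D1. By observed over expected CpG ratio the 32 further lineage genes had a median of 0.444, the 10 members 0.381, the astrocyte markers 0.394, the microglia markers 0.238 and the neuronal markers 0.541.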
